A study of Mus musculus with 3 samples.

Results

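Interferon-stimulated genes (ISGs) were followed through the cell types of the mouse pituitary intermediate lobe (IL). The set was a list of 39 named ISGs, taken by symbol whatever their levels, and 38 of them had a row in all 3 count tables, against 15527 of the 17775 genes with a row in any table. Oas2 had a row only in the S2CK table. The transcriptomes were collected on a droplet platform, 1 library for each of 3 genotypes, from dissected and dissociated ILs of 3-month-old mice. All 3 groups carried Sox9iresCreERT2/+, a tamoxifen-inducible Cre recombinase expressed from Sox9, which is active in stem cells (SCs), and tamoxifen was given to all of them, by the labels at 4 weeks of age. The study's account of this experiment instead gives birth as the time of Cre induction for these libraries, and which applies was not settled here. WT had no further allele by its label, P27NULL was p27-/-, and S2CK was Sox2fl/+;p27-/-, with 1 copy of Sox2 open to deletion in cells that express Sox9. The study's methods add a Rosa26ReYFP/+ reporter and a mixed genetic background. Its supplement lists each library as a pool of animals, males only for WT, and male and female for P27NULL and S2CK. Because each genotype was a single library, differences between genotypes are given as values with counting error and no test, and genotype, sex makeup and library cannot be told apart.

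Type I interferons bind the receptor encoded by Ifnar1 and Ifnar2 and act through the kinases JAK1 and TYK2. A complex that holds STAT2 and IRF9 then binds a DNA element called the interferon-stimulated response element (ISRE), while interferon gamma acts on gamma-activated sites (GAS). The products of ISGs restrict viruses, tag proteins with ISG15, sense foreign nucleic acids or feed back on the pathway, and many are also present at low levels in tissue with no infection.

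Sequences before the start site are shown for 6 members on which the library comparisons below turn, because these stretches hold the matches to the interferon elements. They come from RefSeq on mouse build GRCm38.p6, where 31 of the 39 members had a promoter entry of 250 bases before to 50 bases after a start site. Capitals mark matches to GAAANNGAAA, the ISRE core, searched on both strands, or to TTCNNNGAA, the GAS core, which reads alike on both strands. Ifit1, Ifit3 and Ifit3b encode tetratricopeptide proteins that hold viral RNA, Isg15 a ubiquitin-like protein, Rsad2 the enzyme viperin, and Bst2 tetherin, which keeps budding virions on the cell surface. The windows of Ifit1, Isg15, Rsad2 and Bst2 lie outside the annotated gene. Those of Ifit3 and Ifit3b lie within the annotated gene spans, since other transcripts of both genes start further upstream, and 30 bases of each are shown.
Ifit1, chr19:34640771-34640850, plus strand: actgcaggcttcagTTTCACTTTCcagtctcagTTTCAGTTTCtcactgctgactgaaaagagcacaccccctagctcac
Ifit3, chr19:34583397-34583426, plus strand: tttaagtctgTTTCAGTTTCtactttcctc
Ifit3b, chr19:34607793-34607822, plus strand: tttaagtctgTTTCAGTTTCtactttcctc
Isg15, chr4:156200831-156200910, minus strand: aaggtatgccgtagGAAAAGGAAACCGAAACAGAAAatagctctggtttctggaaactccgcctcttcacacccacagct
Rsad2, chr12:26456507-26456586, minus strand: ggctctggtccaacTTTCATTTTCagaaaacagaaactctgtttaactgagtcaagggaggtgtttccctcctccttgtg
Bst2, chr8:71537537-71537616, minus strand: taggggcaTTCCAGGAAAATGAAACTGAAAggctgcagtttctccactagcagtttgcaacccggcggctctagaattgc

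An ISRE match lay in the promoter window of 17 of the 31 members (54.8%), against 3.99% of the 27025 genes with a window. A GAS match lay in 8 of the 31 (25.8%), against 9.55% of genes, and 5 members held both. Among members that differ in melanotrophs below, Ifit2 held a GAS match but no ISRE match, and Rtp4 had no promoter entry. In Isg15 there were 3 overlapping ISRE matches, which began 78, 72 and 66 bases before the start site. In Bst2 a GAS match overlapped the first of 2 ISRE matches. The windows of Ifit3 and Ifit3b, over a longer stretch of 80 bases, were identical at 80 positions, and the transcripts are close copies too, so reads may have been split between this pair and their values are uncertain. A match describes letters and not binding.

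The libraries held 2020 (WT), 4153 (P27NULL) and 3488 (S2CK) cells, with 8332285, 15588317 and 19239147 unique molecular identifiers (UMIs), and median UMIs per cell of 3642.5, 2740 and 4906.5. Cells with under 1000 UMIs were present in WT only. The libraries shared between 2 and 4 cell barcodes pair by pair. Cells called female made up 0% of WT, 18.4% of P27NULL and 93.9% of S2CK. A cell without Xist UMIs counted as male, so female cells in which Xist was missed count there too. Cdkn1b, the gene of p27, stood at 34.3, 31.0 and 16.9 counts per 1000000 UMIs (CPM) in melanotrophs of WT, P27NULL and S2CK. It was thus present in the library labelled P27NULL, and since a 3′ tag may fall outside the part of the gene that was deleted, these values check no label. Cell types were named from markers after clustering without any ISG: melanotroph-like cells, the hormone-producing cells of the IL, numbered 1270, 3536 and 3007, SC-like cells 138, 105 and 92, endothelial-like cells 78, 20 and 43, macrophage-like cells 135, 119 and 115, and T- or NK-like lymphocytes 31, 15 and 29. "Like" is left out from here on. Macrophage markers summed to 28676, 18016 and 20980 CPM in macrophages, at most 829 CPM in endothelial cells, 224 CPM in SCs and 11.2 CPM in melanotrophs, but to 3445 CPM in T or NK cells of WT. Melanotroph markers summed to 3542 to 7271 CPM in melanotrophs and still to 1111, 2537 and 799 CPM in macrophages.

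Of the 5 cell types, the summed ISGs were lowest in melanotrophs and highest in endothelial cells and SCs, and in SCs most of the sum was Ifitm3. Their summed level in melanotrophs was 612 CPM in WT (95% Poisson interval 592 to 632), 463 in P27NULL (452 to 475) and 601 in S2CK (590 to 613). In SCs it was 4525 (4349 to 4706), 3561 (3374 to 3756) and 7237 (7033 to 7446) CPM, and in endothelial cells 5730 (5311 to 6173), 6326 (5660 to 7049) and 7904 (7404 to 8429) CPM. Each melanotroph value was below the lowest value of the other 4 types. Macrophages stood at 3609 (3375 to 3854), 1921 (1775 to 2076) and 3761 (3567 to 3964) CPM, and T or NK cells at 2498 (2078 to 2979), 1273 (909 to 1733) and 1383 (1121 to 1689) CPM. Intervals cover counting error only. Over the 3 libraries the order was endothelial cells (6653 ± 1123 CPM, SD, n = 3), SCs (5108 ± 1906), macrophages (3097 ± 1021), T or NK cells (1718 ± 678) and melanotrophs (559 ± 82.9). Neighbours in this order overlapped between libraries, except T or NK cells and melanotrophs. Because melanotrophs were the most numerous cells, they still held 39.4%, 64.5% and 54.9% of all member UMIs of WT, P27NULL and S2CK. Without Ifitm3 and Ifi27, the other 37 members summed to 1048, 981 and 1840 CPM in SCs, below macrophages (2453, 1396 and 2667 CPM) in each library. Endothelial cells stayed highest on this sum (3027, 2932 and 3854 CPM) and melanotrophs lowest (352, 280.3 and 342 CPM).

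**Figure D1:**
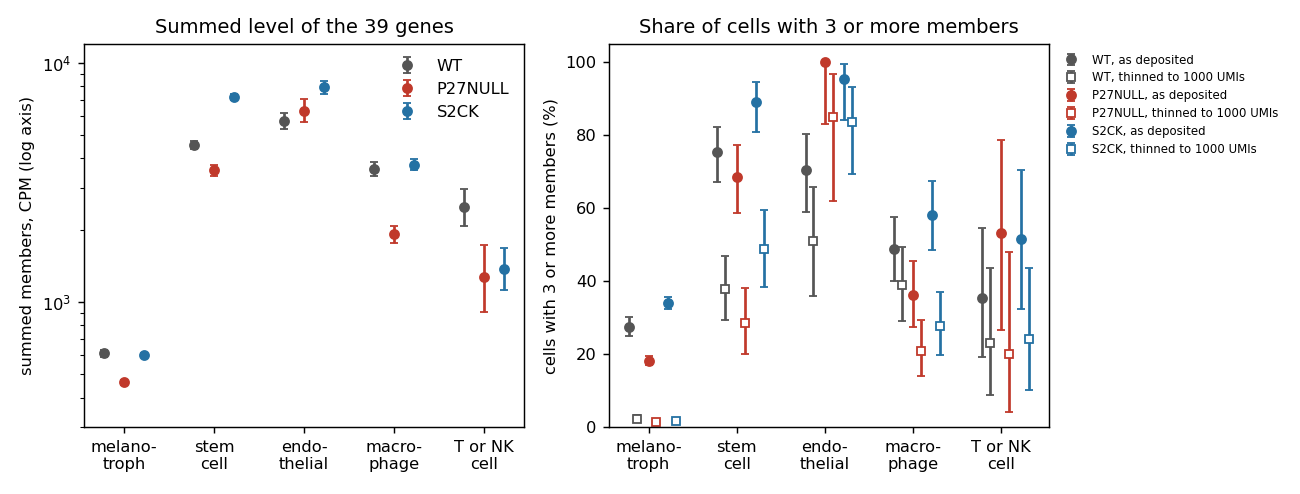
Left, summed level of the 39 ISGs (CPM, log axis) by cell type, 1 point per library with its 95% Poisson interval. Right, share of cells with UMIs of 3 or more ISGs (%), filled circles as deposited and open squares after each cell was thinned to 1000 UMIs, with 95% Clopper-Pearson intervals. Melanotrophs lie between 463 and 612 CPM, under every point of the other 4 types, and their thinned shares lie between 1.36% and 2.33%.

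The share of cells in which 3 or more members were detected gave the same lowest type at one depth. As deposited, it was 27.6%, 18.2% and 34.0% of melanotrophs (WT, P27NULL and S2CK), 75.4%, 68.6% and 89.1% of SCs and 70.5%, 100% and 95.3% of endothelial cells. Detection moves with depth, and median UMIs were 4162, 2821.5 and 5021 in melanotrophs but 2034, 2275 and 3561.5 in SCs. After thinning every cell to 1000 UMIs, melanotrophs stood at 2.33% (Clopper-Pearson interval 1.57 to 3.33), 1.36% (1.003 to 1.80) and 1.70% (1.27 to 2.22), while SCs stood at 37.8% (29.3 to 46.8), 28.6% (20.2 to 38.2) and 48.9% (38.3 to 59.6). Thinned endothelial cells stood at 51.1% (36.1 to 65.9), 85.0% (62.1 to 96.8) and 83.7% (69.3 to 93.2). Macrophages reached 48.9%, 36.1% and 58.3% as deposited and 38.9%, 21.0% and 27.8% thinned, and T or NK cells 35.5%, 53.3% and 51.7% as deposited and 23.1%, 20% and 24.1% thinned. Thinning left out 26 melanotrophs, 11 SCs, 31 endothelial cells, 40 macrophages and 5 T or NK cells, which were WT cells throughout. Free RNA from broken cells can place a UMI in a cell that does not express a gene. Ccl5, a chemokine of lymphocytes, stood at 11162, 2705 and 4626 CPM in T or NK cells and at 0.330, 0 and 0.586 CPM in melanotrophs. A gene of so rare a type cannot gauge free RNA from abundant cells. Melanotroph markers summed to 839, 672 and 624 CPM in SCs and to 473, 154 and 764 CPM in endothelial cells. How much of this was free RNA was not tested.

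**Figure D2:**
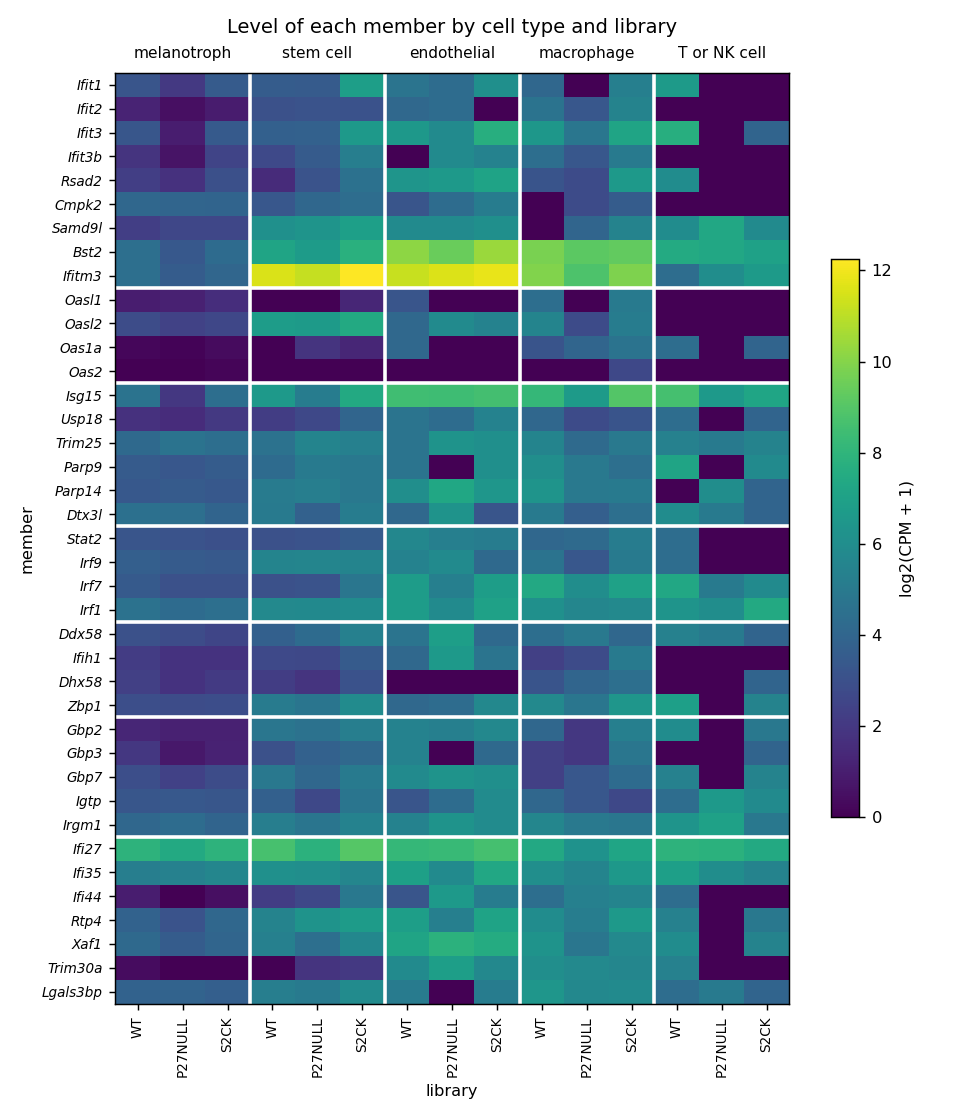
Level of each of the 39 members, as log2(CPM + 1), in the 15 sums of cell type and library, with members ordered by role and white lines between roles. Ifitm3 is brightest in SCs and endothelial cells (2346 to 4875 CPM), Ifi27 is the only member above 100 CPM in melanotrophs, and Oas2 had no row in WT and P27NULL, where it is drawn at 0.

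The leading genes differed between SCs, melanotrophs and T or NK cells, while endothelial cells and macrophages shared the 4 members with most UMIs over the 3 libraries. These are 3′ tag counts, which do not scale with transcript length, so levels of different genes are compared as CPM. In melanotrophs the highest members were Ifi27 (239, 172 and 243 CPM in WT, P27NULL and S2CK), a mitochondrial and nuclear envelope protein, Ifi35 (37.0, 40.1 and 47.7), which partners NMI, Irf1 (23.3, 18.7 and 21.2), a transcription factor, and Trim25 (17.3, 24.2 and 20.7), the ubiquitin ligase that activates RIG-I. Ifi27 alone was detected in 61.4%, 42.8% and 69.6% of melanotrophs.

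In SCs the leading member was Ifitm3, which blocks fusion of viruses with endosomes, at 3060, 2346 and 4875 CPM and in 95.7%, 97.1% and 92.4% of cells. The same gene stood at 21.1, 10.97 and 15.4 CPM in melanotrophs, in 5.8%, 3.8% and 5.3% of cells. Then came Ifi27 (417, 235 and 523 CPM), Bst2 (142, 105 and 219 CPM) and Oasl2 (109, 103 and 173 CPM), an oligoadenylate synthetase-like protein.

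Endothelial cells had Ifitm3 at 2421, 3086 and 3651 CPM, and in each library they had the highest Bst2 of the 5 types, at 1144, 694 and 1358 CPM. Isg15 stood at 365, 347 and 391 CPM there and Ifi27 at 282, 309 and 399 CPM. Macrophages were led by the same 4 genes at lower levels of Ifitm3. In macrophages Ifitm3 stood at 989, 450 and 950 CPM, Bst2 at 875, 582 and 641, Isg15 at 281, 102 and 502, and Ifi27 at 167, 75.1 and 145. Ifitm3 was not among the 4 highest members of T or NK cells (20.1, 63.6 and 101 CPM). They had Isg15 at 403, 95.5 and 144 CPM, Ifi27 at 242, 223 and 173, Bst2 at 181, 159 and 130, and Irf1 at 80.6, 63.6 and 173. A single WT cell, among the highest doublet scores, held 12 of the 20 Isg15 UMIs of WT T or NK cells. In the other 30 WT cells Isg15 stood at 186 CPM, and the P27NULL value rested on 3 UMIs.

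Differences between types were tested with edgeR's quasi-likelihood test on the 15 sums, with the library as a block and Benjamini-Hochberg adjustment over all 6463 genes that passed the count filter. The 3 libraries stand in as replicates of a type although they differ in genotype. Of the 39 members, 30 passed the filter, and Ifit2, Cmpk2, Oasl1, Oas1a, Oas2, Usp18, Ifih1, Dhx58 and Gbp3 did not. A gene high in a small type alone can pass this filter, so the counts below describe the tested members beside all genes and are no test of the list.

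In SCs 23 of the 30 were higher than in melanotrophs and 0 lower, where 26.2% of all genes were called higher and 22.5% lower. In endothelial cells the count was also 23 higher and 0 lower, where 20.2% of all genes were called higher and 20.5% lower. In macrophages 24 were higher and 1, Ifi27, was lower, where 22.1% of all genes were called higher and 23.8% lower. In T or NK cells 13 were higher and 0 lower, where 11.0% of all genes were called higher and 19.7% lower. The T or NK count was 6 of 31 when WT was left out and 10 of 30 without P27NULL. Over all genes, 587 of 7142 and 659 of 6201 were then called higher. The median log2 fold change of the tested members was 1.82 in SCs, 2.52 in endothelial cells, 2.31 in macrophages and 1.72 in T or NK cells, beside -0.02, -0.16, -0.15 and -0.61 over all genes. Ifit3b and Oasl2 had no UMI in T or NK cells, and with these 2 set to the limit that a count of 0 allows (3 UMIs over the type) the T or NK median was 1.93. When WT was left out, the T or NK median of the tested members was 0.48, beside -0.63 over all genes.

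**Figure D3:**
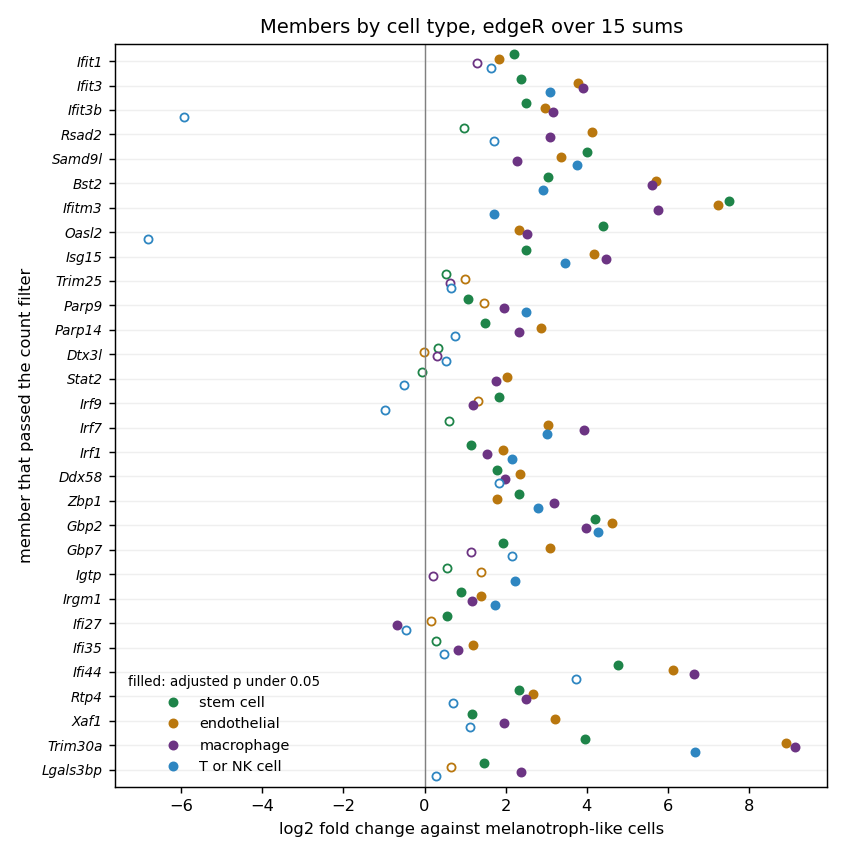
Log2 fold change of the 30 tested members in each cell type against melanotrophs, from edgeR over 15 sums. Filled points passed an adjusted p of 0.05 and open points did not. Most filled points lie right of 0, Trim30a and Ifitm3 farthest, and the open points of Oasl2 and Ifit3b far to the left are T or NK cells with no UMI.

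Ifitm3 was among the 3 largest increases in SCs (log2 fold change 7.5, SE 0.24, adjusted p = 1.35e-26 by edgeR), endothelial cells (7.24, SE 0.24, adjusted p = 3.69e-26) and macrophages (5.77, SE 0.23, adjusted p = 5.998e-24). Ifi44, a cytoplasmic protein strongly induced by interferon, was raised in SCs (4.78, SE 0.78, adjusted p = 2.15e-06 by edgeR), endothelial cells (6.13, SE 1.08, adjusted p = 1.16e-05) and macrophages (6.65, SE 0.73, adjusted p = 4.19e-10). It had 13 UMIs in all melanotrophs together, against 23, 10 and 35 UMIs in the far fewer cells of SCs, endothelial cells and macrophages. Oasl2 rose by 4.39 in SCs (SE 0.26, adjusted p = 2.10e-17 by edgeR).

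Trim30a, a tripartite motif protein, was close to absent from melanotrophs, with 2 UMIs in all 3 libraries against 19 in endothelial cells and 52 in macrophages. Its CPM over the pooled libraries was higher by 10.23 on the log2 scale in endothelial cells (exact interval 8.18 to 13.38) and by 9.97 in macrophages (8.05 to 13.06). The fitted values of 8.93 (SE 0.88, adjusted p = 4.03e-11 by edgeR) and 9.15 (SE 0.68, adjusted p = 8.45e-15) depend on the prior count used for so few UMIs.

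In T or NK cells the 3 largest increases were those of Trim30a (6.67, SE 2.01, adjusted p = 0.00994 by edgeR, from 2 UMIs), Gbp2 (4.28, SE 1.09, adjusted p = 0.00237), a guanylate-binding GTPase, and Samd9l (3.76, SE 0.69, adjusted p = 3.83e-05), a restriction factor of poxviruses. The Trim30a and Gbp2 calls were lost without WT. That of Trim30a also went at Leiden resolution 2, and without the highest doublet scores its value was -1.17. Ifi27 was the only member called lower in any type, with a log2 fold change of -0.67 in macrophages (SE 0.18, adjusted p = 0.00217 by edgeR). Without the library block its adjusted p was 0.0929, and over the other alternatives it ran from 0.000447 to 0.0366.

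By role, the IFIT genes and other antiviral effectors were raised in 6 of 7 tested members in SCs, 7 in endothelial cells, 6 in macrophages and 4 in T or NK cells, with Bst2, Ifit3, Ifitm3 and Samd9l called in each type. In T or NK cells Ifit3 stood at 1198 CPM in 1 WT cell, which was among the highest doublet scores. It stood at 46.6 CPM in the other 30 WT cells, 0 in P27NULL and 14.4 CPM in S2CK. Beside all counts by role stand the shares of all genes called higher in these types, 26.2%, 20.2%, 22.1% and 11.0%. Of the OAS family, enzymes that make the messenger of RNase L or resemble them, Oasl2 alone was tested and was raised in 3 types. In the ISG15 and ADP-ribosylation group 3, 2, 3 and 2 of 5 members were raised in SCs, endothelial cells, macrophages and T or NK cells, Isg15 in each, while Trim25 and Dtx3l did not pass in any.

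Among the transcription factors, Irf1 was raised in every type, Irf7, which drives type I interferon genes, in endothelial cells, macrophages and T or NK cells, and Stat2 in endothelial cells and macrophages. Irf7 stood at 10.2, 7.24 and 7.20 CPM in melanotrophs and 167, 63.0 and 129 CPM in macrophages. Of the sensors, Zbp1 was raised in each type, and Ddx58, the gene of RIG-I, in all but T or NK cells. The GTPases Gbp2 and Irgm1 were raised in each type, Gbp7 in SCs and endothelial cells and Igtp in T or NK cells. The members of the last, mixed group were raised in 6 of 7 (SCs), 5 (endothelial cells), 6 (macrophages, with Ifi27 lower) and 1 (T or NK cells). Lgals3bp, a secreted glycoprotein that binds galectins, passed in SCs and macrophages.

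Of the 9 members not reaching the filter, 8 stood under 4 CPM in melanotrophs of each library. Oas1a, an oligoadenylate synthetase, had 7 UMIs in melanotrophs and 16 in macrophages, and Oas2 had 2 UMIs in each of these types. Dhx58, a regulator of RIG-I-like sensors, was at 0 UMIs in endothelial cells of each library. The exception was Cmpk2, a mitochondrial nucleotide kinase, which stood at 15.9, 15.1 and 14.5 CPM in melanotrophs and at 0, 6.004 and 10.7 CPM in macrophages.

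The pathway upstream was described from lists of ligands, receptors, regulators and sensors. Of 18 interferon and Il27 genes 2 had a row, both only in S2CK: Ifng reached 57.6 CPM in T or NK cells (4 UMIs) and Il27 8.05 CPM in macrophages (3 UMIs). None was tested. Receptors and JAK kinases were raised against melanotrophs in 6 (SCs), 5 (endothelial cells), 6 (macrophages) and 3 (T or NK cells) of 7 tested genes. Of all genes, 26.2%, 20.2%, 22.1% and 11.0% were called higher in the same types. Ifngr1, a chain of the interferon gamma receptor, stood at 15.0, 13.7 and 15.3 CPM in melanotrophs and 366, 267 and 360 CPM in macrophages. Jak1 ranged from 42.7 to 56.9 CPM in melanotrophs and from 173 to 322 CPM in T or NK cells, and Ifnar2 from 24.6 to 28.7 CPM in melanotrophs and from 144 to 252 CPM in macrophages. Ifngr2 and Il10rb, chains of the gamma and lambda receptors, stood at up to 193 CPM in endothelial cells of P27NULL (10 UMIs) and 148 CPM in SCs of P27NULL (56 UMIs).

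Of the regulators, Socs3, a feedback inhibitor, was lower in endothelial cells and in T or NK cells than in melanotrophs by edgeR. Irf8, a factor of the myeloid lineage, stood at 208, 315 and 386 CPM in macrophages and 3.47, 3.66 and 3.69 CPM in melanotrophs. Socs3 stood at 150, 153 and 111 CPM in melanotrophs and Socs1 at 141, 127 and 187 CPM in T or NK cells. Ptpn6, a phosphatase of immune cells, stood at 155, 126 and 72.4 CPM in macrophages and at 40.3, 159 and 72.1 CPM in T or NK cells, where the 159 CPM rested on 5 UMIs. Irf2 stood at 101, 127 and 72.1 CPM in T or NK cells, the 127 CPM from 4 UMIs, and at 124 CPM in endothelial cells of WT from 15 UMIs. Of the sensing adaptors 2 were tested. Myd88 passed in every type and Tlr3, a sensor of double-stranded RNA, in SCs and macrophages, with values of at most 43.2 CPM and 39.5 CPM. Tbk1 reached 50.9 CPM in endothelial cells, and Tmem173 (STING) and Tlr7 reached 36.6 and 24.4 CPM in macrophages.

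ISGs outside the set were raised as well. Of 38 tested from a list of 80, 22 were raised in SCs, 31 in endothelial cells, 33 in macrophages and 25 in T or NK cells, with Isg20 lower in SCs and Ifitm2 lower in T or NK cells. Of all genes, 26.2%, 20.2%, 22.1% and 11.0% were called higher in these types, and 22.5%, 20.5%, 23.8% and 19.7% lower. A gene high in a small type alone can pass the filter here too, so these counts are no test of the list. The highest of them beside Ccl5 were Ly6e (1409, 1669 and 1837 CPM in SCs, against 68.5, 92.6 and 77.1 in melanotrophs), Ifi27l2a (1802, 1546 and 1400 CPM in macrophages), Ifitm2 (1426, 1254 and 1681 CPM in endothelial cells) and Psmb8, an immunoproteasome subunit (1068, 795 and 1470 CPM in T or NK cells).

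The comparison of P27NULL with WT addresses what loss of p27 goes along with. A ratio was taken for members with at least 10 UMIs in a pair of libraries, and 2-fold serves as a mark of size. In melanotrophs the summed members were lower in P27NULL by a log2 ratio of -0.40 (exact interval -0.46 to -0.34), and the median member was at -0.34 where the median gene was at 0.09. Of 35 members, 0 were past 2-fold higher and 7 past 2-fold lower, against 4.39% and 2.24% of all genes. The 7 were Ifit1, Ifit2, Ifit3, Ifit3b, Bst2, Isg15 and Gbp3. The largest differences were those of Ifit3, at 8.59 CPM in WT and 0.951 CPM in P27NULL (log2 ratio -3.17, -4.18 to -2.28), and Isg15, at 24.3 and 3.00 CPM (-3.02, -3.55 to -2.51). When the 5% of melanotrophs with the most member UMIs were left out of each library, Ifit3 was at 0.55 (-1.17 to 2.64) and Isg15 at -0.27. Member UMIs count Ifit3 and Isg15 themselves, so this removes cells that hold them by construction.

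In SCs the sum was at -0.35 (-0.44 to -0.25) and the median member at -0.10, with the median gene at 0.03. Without Ifitm3 and Ifi27 the interval of the sum held 0 (-0.10, -0.29 to 0.09), and the 4 IFIT genes together stood at 0.21 (-0.83 to 1.23). Of 24 members 0 were past 2-fold higher and 2 past 2-fold lower, against 7.12% and 5.73% of all genes. These were Isg15 (94.6 against 34.3 CPM, log2 ratio -1.47, -2.47 to -0.57) and Dtx3l, a ubiquitin ligase that pairs with PARP9 (30.9 against 13.2 CPM, -1.23, -3.02 to 0.27). In endothelial cells the interval of the sum held 0 (0.14, -0.05 to 0.33), and with trimmed mean of M-values (TMM) scaling the value was -0.06. Parp14 was past 2-fold higher and Irf7, Ifi35 and Rtp4 past 2-fold lower among 15 members, against 7.03% and 14.2% of all genes. Those with 20 UMIs or more that differed most were Bst2 (-0.72, -1.29 to -0.18) and Xaf1 (0.72, -0.48 to 1.87), a partner of the apoptosis inhibitor XIAP.

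In macrophages the sum was at -0.91 (-1.06 to -0.76) and the median member at -1.04, with the median gene at -0.08. Of 22 members 0 were past 2-fold higher and 11 past 2-fold lower, against 8.11% and 10.4% of all genes. The 11 were Ifit3, Ifitm3, Oasl2, Isg15, Trim25, Parp9, Parp14, Dtx3l, Irf7, Ifi27 and Xaf1. Ifit3 stood at 89.5 CPM in WT and 27.02 in P27NULL (-1.73, -3.03 to -0.55), and Xaf1 at 77.3 and 27.02 CPM (-1.52, -2.84 to -0.30). Macrophage markers were lower in P27NULL macrophages as well (28676 against 18016 CPM) and melanotroph markers higher (1111 against 2537 CPM), and the part of this in the result was not tested. In T or NK cells the sum was at -0.97 (-1.53 to -0.45), from 124 UMIs in WT and 40 in P27NULL. A single WT cell held 50 of the 124 UMIs and was among the highest doublet scores. Without the top 5% of cells the value was -0.17, and after thinning -0.29. In the same cells T or NK markers stood at 6891 CPM in WT and 3246 in P27NULL, macrophage markers at 3445 and 1241, and melanotroph markers at 403 and 1241, and the part of this in the result was not tested. Of 4 members 0 were past 2-fold higher and 2 past 2-fold lower (Ifit3, with 0 UMIs in P27NULL, and Isg15, -2.08, -4.47 to -0.32), against 12.0% and 10.9% of all genes, and their median was -1.13, or -0.63 with Ifit3 at its limit.

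**Figure D4:**
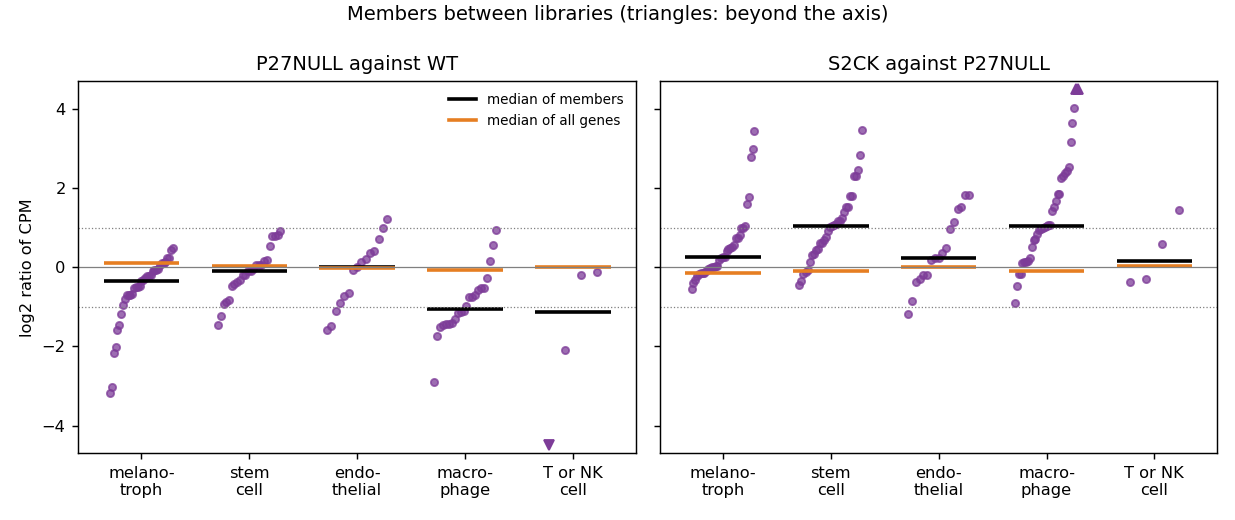
Log2 ratio of CPM for each member with at least 10 UMIs in the pair of libraries, by cell type, P27NULL against WT on the left and S2CK against P27NULL on the right. Black bars are the median of the members, orange bars the median of all genes, and dotted lines mark 2-fold. The member median is -1.04 in macrophages on the left, and 1.03 in both SCs and macrophages on the right. Triangles are ratios beyond the axis, from members with 0 UMIs in a library.

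The comparison of S2CK with P27NULL describes what goes along with 1 floxed copy of Sox2 on the p27-/- background. Called female were 93.9% of S2CK and 18.4% of P27NULL cells, and genotype, sex makeup and library cannot be told apart. This comparison shares the P27NULL library with the one above, so a value particular to that library enters each with opposite sign. In SCs the summed members were at 1.02 (0.94 to 1.11) and the median member at 1.03, with the median gene at -0.10. SC markers stood at 9796, 8377 and 5062 CPM in SCs of WT, P27NULL and S2CK, lower in S2CK, and the part of this in the result was not tested. Of 32 members 17 were past 2-fold higher and 0 past 2-fold lower, against 8.33% and 10.1% of all genes. These 17 were Ifit1, Ifit3, Ifit3b, Rsad2, Bst2, Ifitm3, Isg15, Usp18, Dtx3l, Irf7, Ddx58, Zbp1, Gbp7, Igtp, Ifi27, Ifi44 and Xaf1. Ifit1 stood at 10.9 CPM in WT, 10.5 in P27NULL and 117 in S2CK (log2 ratio 3.47, 2.06 to 5.38), and Ifit3 at 12.7, 13.2 and 94.2 CPM (2.84, 1.54 to 4.51). A single S2CK SC held 64 of the 168 IFIT UMIs, and 5 of the 92 SCs held 122. The 28 S2CK SCs with 10 or more members detected held 71.4% of the member UMIs, and the 7 of P27NULL 31.3%. SCs with fewer stood at 3463 CPM in P27NULL and 6266 in S2CK, a split that counts the members themselves.

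Of the ISGs outside the set, 15 of 38 were past 2-fold higher in SCs of S2CK and 0 lower, against 8.33% and 10.1% of all genes. Their sum was at 0.35 (0.26 to 0.44). In melanotrophs the sum of these other ISGs was at -0.01 (-0.04 to 0.02) for S2CK against P27NULL and at 0.05 (0.01 to 0.09) for P27NULL against WT, where the members were at 0.38 and -0.40. By gene, 7 of 56 were past 2-fold higher in S2CK than in P27NULL and 1 lower, against 2.57% and 5.60% of all genes. Their median was 0.09, with the median gene at -0.15. For P27NULL against WT, 1 of 47 was past 2-fold higher and 1 lower, against 4.39% and 2.24% of all genes, with a median of -0.05. In macrophages the members' sum was at 0.97 (0.83 to 1.11), and 19 of 35 members were past 2-fold higher and 0 lower, against 8.06% and 12.5% of all genes, with the median member at 1.03 and the median gene at -0.08. Rsad2 stood at 6.004 CPM in P27NULL and 96.6 in S2CK (4.01, 2.05 to 7.11) and Ifit3 at 27.02 and 140 CPM (2.37, 1.33 to 3.58). Ifit1 had 0 UMIs in P27NULL macrophages and 14 in S2CK, and Oasl1 0 and 12. The 11 S2CK macrophages with 10 or more members detected held 59.2% of the member UMIs, and the 3 of P27NULL 20.5%. Macrophages with fewer stood at 1574 CPM in P27NULL and 1831 in S2CK, a split that counts the members themselves. Melanotroph markers in macrophages stood at 2537 CPM in P27NULL and 799 in S2CK, and the part of this in the result was not tested. Against the female-called macrophages of P27NULL alone, with S2CK cells of either sex call kept, the summed value was 1.89. Of P27NULL macrophages with under 10 members detected, 20 of 116 were female-called, and 0 of the other 3.

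In melanotrophs the sum was at 0.38 (0.33 to 0.42), the median member at 0.25 and the median gene at -0.15. Of 35 members 7 were past 2-fold higher and 0 lower, against 2.57% and 5.60% of all genes: Ifit1, Ifit2, Ifit3, Ifit3b, Rsad2, Isg15 and Rtp4, a chaperone of chemosensory receptors. Ifit3 stood at 0.951 against 10.2 CPM (3.43, 2.62 to 4.37) and Ifit3b at 0.585 against 4.63 CPM (2.98, 1.93 to 4.24). Without the 5% of cells with most member UMIs, a choice that counts these genes, they were 0.50 and 0.73. In endothelial cells the sum was at 0.32 (0.14 to 0.51), and of 17 members 5 (Ifit3, Irf7, Irf1, Ifi35 and Rtp4) were past 2-fold higher and 1 (Trim30a) past 2-fold lower, against 12.5% and 10.8% of all genes. Ifit3 (1.82, 0.10 to 4.19) and Ifi35 (1.48, -0.29 to 3.88) each rested on 3 UMIs in P27NULL. A single S2CK endothelial cell held 134 of the 931 member UMIs of that sum. In T or NK cells the sum was at 0.12 (-0.43 to 0.69), and of 4 members 1, Irf1, was past 2-fold higher and 0 lower, against 14.0% and 13.1% of all genes.

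The IFIT transcripts of melanotrophs were concentrated in few cells. UMIs of Ifit1, Ifit2, Ifit3 and Ifit3b numbered 127 in 40 WT melanotrophs, 69 in 68 P27NULL melanotrophs and 448 in 130 S2CK melanotrophs. Cells with 3 or more of them were 16 of 1270 in WT (1.26%, Clopper-Pearson interval 0.722 to 2.04), 0 of 3536 in P27NULL (0 to 0.104 by the same interval, while a limit of 3 counts is 0.0848%), and 15 of 3007 in S2CK (0.499%, 0.279 to 0.821). These few cells held 100 of the 127 IFIT UMIs of WT and 328 of the 448 of S2CK, with up to 54 in a single cell. The cut at 3 UMIs is a range on a count and not a cell type, with 3 WT cells at 2 UMIs and 5 at 3.

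**Figure D5:**
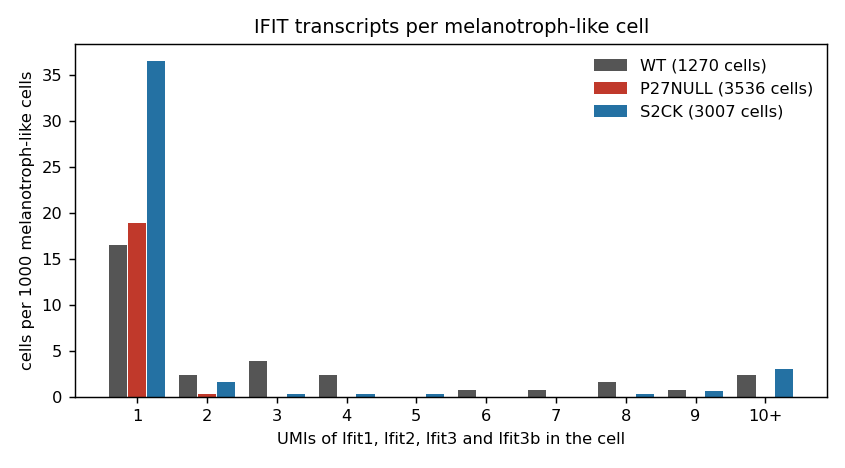
Melanotrophs by the number of Ifit1, Ifit2, Ifit3 and Ifit3b UMIs they hold, as cells per 1000 melanotrophs of each library; cells with none are not drawn. P27NULL stops at 2 UMIs, while WT and S2CK extend to 10 or more.

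The same cells were high in other ISGs. They held 69.4% and 60.9% of the Isg15 UMIs of melanotrophs in WT and S2CK. ISGs outside the set summed to 3879 CPM in these cells of WT (3457 to 4338) and 5514 CPM in S2CK (5088 to 5966), while melanotrophs with fewer than 10 members detected stood at 1082 CPM (WT), 1162 CPM (P27NULL) and 1119 CPM (S2CK). Their median UMI counts were 4640.5 and 6656, they held 1 and 0 UMIs of the macrophage markers, and 0 were among the highest doublet scores. At 1000 UMIs per cell, 11 WT, 0 P27NULL and 13 S2CK melanotrophs still had 5 or more members detected. In P27NULL the absence held in cells of either sex call, with 13 IFIT UMIs in 638 female-called and 56 in 2887 male-called melanotrophs, and at most 2 in a cell.

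Melanotrophs with 10 or more members detected were not of 1 kind. The 15 of WT and 26 of S2CK had member sums of 4713 and 4187 CPM, while the 10 of P27NULL stood at 567 CPM, near the 461 CPM of the other P27NULL melanotrophs, and had a median of 24167 UMIs.

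Outside melanotrophs, cells with 3 or more IFIT UMIs were 0 of 138, 0 of 105 and 11 of 92 SCs (WT, P27NULL and S2CK), the last being 12.0% (6.12 to 20.4). The 11 held 142 of the 168 IFIT UMIs of S2CK SCs, with a median of 12818 UMIs per cell, 29 UMIs of macrophage markers and 2 cells among the highest doublet scores. Such cells numbered 1, 0 and 5 among endothelial cells, 5, 3 and 5 among macrophages and 1, 0 and 0 among T or NK cells. The S2CK SC with the most members had UMIs of 30 members and 272 member UMIs of 15917, with no macrophage marker UMI, and the S2CK melanotroph with the most had 34 members and 184 member UMIs of 16317. Over all cells of a library, 28 of 2020 WT cells, 3 of 4153 P27NULL cells and 39 of 3488 S2CK cells held 3 or more IFIT UMIs, and the 3 of P27NULL were macrophages.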

How the data were processed

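The deposited tables held raw UMI counts per gene and cell barcode, with no normalization. The authors used 10x Genomics Chromium 3′ v3 chemistry and counted UMIs with Cell Ranger 3.0.2 on GRCm38, and the submitters' processing notes also list R 3.6.0, STAR 2.5.1b and mm10. Each library was a pool of cells of 1 genotype, so genotypes have no replicates. The members and gene lists were chosen with earlier results of these data known. Cells were clustered with scanpy 1.11.5 (Python 3.11.15) from 2000 variable genes, 20 components, 20 neighbours and Leiden resolution 1, without members, other ISGs, pathway genes or sex-linked genes. SCs and melanotrophs came from clusters of each library, the other types from joint clusters. A name needed 3 detected markers, a relative marker level of 0.3 and a lead of 0.1 over the next type, thresholds set after the data were seen. Doublets were kept, because Scrublet called 11 of 9661 cells. An alternative left out the 268 highest scores, taken as 0.8% per 1000 barcodes.

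Counts were summed per library and type and scaled to 1000000 (CPM). Intervals at 95% (Poisson, Clopper-Pearson and exact conditional, scipy 1.17.1) cover counting error only, and UMIs set the depth. Types were compared with edgeR 4.0.16 in R 4.3.3 (filterByExpr, TMM, library block, adjusted p under 0.05), with DESeq2 1.42.0 as an alternative. The block removes differences between libraries that all types share. The p-values rest on the scatter that remains, pooled over the 5 types, in libraries that also differ in genotype. The 5 types of a library come from the same cell pool, which is the source of the block. The steps were tested on simulated data. Values are given for the 4 highest members by type, the 2 largest ratios per contrast and type among members with at least 20 UMIs, the 3 largest called folds per direction, and the 5 highest genes of each other list. Other members named were chosen after their values were seen. Alternatives covered cell filters, clusters, doublets, thinning, scaling, sex, the count filter, the block and each library left out. The count over the list of regulators is not reported here.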

Additional observations from a re-analysis of the deposited data

Results flagged for a closer look

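The summed members of P27NULL against WT lay above 0 in some types and below 0 in others, which marked them for a closer look. The log2 ratio was 0.14 in endothelial cells (exact interval -0.05 to 0.33), 0.33 in gonadotroph-like cells (0.10 to 0.56) and 0.51 in cells of the Pou1f1 lineage (0.003 to 0.999), while it was below 0 in melanotrophs, SCs, macrophages, T or NK cells, connective tissue cells and pituicytes. With 1 library per genotype the difference between types was not tested.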

How the results depend on the processing

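Of the values that answer a comparison, 142 counted as unchanged under the alternatives and 41 moved. Unchanged meant within the main interval for ratios, and within the SD of the libraries for shares and CPM. For counts of members it meant within a set fold of the main count, which is no error. CPM sums by type did not move under joint clusters, the 500-gene filter or the removal of the highest doublet scores. The causes were not tested. For P27NULL against WT, the melanotroph sum was -0.18 without the 5% of cells with most member UMIs (an alternative chosen after seeing the data), -0.48 with TMM factors and -0.50 with a total that omits Pomc and the mitochondrial and ribosomal protein genes. The SC sum was -0.47 and the T or NK sum -0.44 without the highest doublet scores. The endothelial sum was 0.39 thinned and -0.065 with TMM factors, the macrophage sum -0.48 at Leiden resolution 2, and the T or NK sum -0.29 thinned and -0.17 without the top 5% of cells. For S2CK against P27NULL, the melanotroph sum was 0.43 at resolution 2, 0.24 thinned, 0.20 without the top 5% and 0.51 with TMM factors. It was 0.50 with the reduced total, 0.30 without Ifi27 and 0.51 against the female-called cells of P27NULL alone. That last setting kept S2CK cells of either sex call, so it does not match the sexes. The SC sum was 1.14 without the highest doublet scores, 1.15 with TMM factors, 1.16 with the reduced total and 0.86 against female-called cells of P27NULL. The endothelial sum was 0.53 without the highest doublet scores and 0.61 with TMM factors. The macrophage sum was 0.50 at resolution 2, 0.64 thinned, 0.55 without the top 5% and 1.89 against female-called cells of P27NULL.

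The mean share of cells over the 3 libraries with 3 members detected was 26.6% in melanotrophs, 77.7% in SCs, 88.6% in endothelial cells, 47.8% in macrophages and 46.8% in T or NK cells. Thinned it was 1.79%, 38.4%, 73.3%, 29.3% and 22.4%. With 2 members in melanotrophs, SCs, macrophages and T or NK cells it was 52.8%, 92.9%, 70.3% and 62.3%, and with 5 members in the 5 types 5.85%, 48.3%, 63.9%, 25.3% and 12.3%. Leaving out each library gave 17 to 24 members raised in SCs, 18 to 24 in endothelial cells, 18 to 26 in macrophages and 6 to 10 in T or NK cells, the lowest of the last without WT. Tested were 31 members of 7142 genes without WT, 30 of 6201 without P27NULL and 27 of 6082 without S2CK. Over all genes, 1475 to 1554 were called higher in SCs and 1014 to 1182 in endothelial cells. In macrophages 1180 to 1397 genes were called higher, and in T or NK cells 503 to 659. With no replicate block the counts were 22, 21, 24 and 11 of 30, and Ifi27 in macrophages lost its call. Of 6463 genes, 1518, 1251, 1279 and 653 were called higher in that setting. The sign changed for the endothelial sum with TMM factors (above), for Ifit3 in melanotrophs, P27NULL against WT, at 0.55 (-1.17 to 2.64) without the top 5% of cells, which were chosen by UMIs that include Ifit3, and for Trim30a in T or NK cells at -1.17 without the highest doublet scores. The 20 endothelial and 15 T or NK cells of P27NULL set the widest intervals.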

Other observations

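The members were also summed in types outside the 5 above. Gonadotroph-like cells, an anterior lobe type, stood at 713 CPM in WT, 896 in P27NULL and 1073 in S2CK, and cells of the Pou1f1 lineage at 450, 642 and 697 CPM, so these endocrine types lay close to melanotrophs. Connective tissue cells stood at 3687, 1842 and 3884 CPM, in the range of macrophages, with log2 ratios of -1.001 (-1.22 to -0.78) for P27NULL against WT and 1.08 (0.87 to 1.28) for S2CK against P27NULL. Pituicyte-like cells of the posterior lobe stood at 2636 CPM in WT and 1959 CPM in P27NULL.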
